A study of Sus scrofa with 21 samples.

Results

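The testis-specific serine kinases are the TSSK family, and their substrate TSKS is counted with them here. The genes were taken by symbol: TSSK1B, TSSK2, TSSK3, TSSK4, TSSK6 and TSKS, which are 6 of the 25880 genes in the count files. Testis RNA of 21 boars, 13 Landrace and 8 Duroc, was sequenced with 1 library per boar, and the boars had been chosen for high or low sperm hyperactivity, the vigorous and asymmetric swimming that sperm show before fertilization. In contrast (i), 4 Landrace boars with high hyperactivity at day 0, the day of ejaculation (L5, L6, L7 and L8), were compared with 4 low boars (L1, L2, L3 and L4). In contrast (iii), 3 Landrace boars whose hyperactivity changed much over 96 h of semen storage at 18 °C (L7, L13 and L15) were compared with 4 boars in which it changed little (L2, L9, L10 and L12). In contrast (ii), 5 Duroc boars labelled high (D1 to D5) were compared with 3 labelled low (D6, D7 and D9) at day 0. The 2 Landrace contrasts share 2 boars, L2 and L7. All animals were untreated boars in use for artificial insemination, and the hyperactivity was measured in ejaculated sperm while the RNA came from testis tissue taken at slaughter. By name, 7 of the 8 Duroc boars carry the other level in the boar list that accompanies the series, so the direction of contrast (ii) is that of the deposited labels.

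TSSK kinases add phosphate to serine and threonine residues and are known almost solely from testis, where they are made in germ cells after meiosis, while the round spermatid is reshaped into a sperm with a condensed nucleus and a tail. TSSK1B and TSSK2 are close relatives that bind and phosphorylate TSKS, and male mice without both kinases are infertile. TSSK6 is needed in mice for normal condensation of sperm chromatin, TSSK4 phosphorylates the tail protein ODF2, and TSSK3 is a further spermatid kinase. Whole testis holds germ cells of all stages beside Sertoli, Leydig, peritubular, immune and vessel cells, and in such bulk tissue fewer cells of a type and less RNA per cell cannot be told apart.

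By RefSeq's pig annotation (Sscrofa11.1), in which the genes were found by symbol, TSSK1B (ENSSSCG00000010112) is at chr14:50937885-50938979 and TSSK2 (ENSSSCG00000010113) at chr14:50943017-50944093, with 4037 bases between them. TSSK3 (ENSSSCG00000023968) is at chr6:88810023-88811559, TSKS (ENSSSCG00000003191) at chr6:54762173-54785211, TSSK4 (ENSSSCG00000025470) at chr7:75094921-75104189 and TSSK6 (ENSSSCG00000013937) at chr2:58411122-58411943. The annotated spans of TSSK1B, TSSK2 and TSSK6 are 1095, 1077 and 822 bases, all multiples of 3, as coding sequences would be. These spans were used as lengths. The reads were counted on Ensembl models, whose lengths were not compared here, so levels per kilobase are approximate. TSSK3 overlaps FAM229A and BSDC1, TSSK4 overlaps TM9SF1, and TSKS holds the lncRNA LOC110261020. The reads were counted by strand, but reads that fall where 2 genes of the same strand overlap are uncertain for TSSK3, TSSK4 and TSKS.

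The libraries held 41358671 to 125576407 counts on genes, and the genes were covered by 168 to 943 reads per library for TSSK6 and by 1045 to 17700 for the other 5. Levels are given as CPM, read counts relative to library size after TMM scaling (edgeR's trimmed mean of M-values) of all 21 libraries together, and their precision was limited by the number of boars. The summed markers of spermatids, spermatocytes and Leydig cells were well above 0 in all libraries, but the Sertoli cell marker AMH had 0 counts in every one. In contrast (i), reads that did not align uniquely took 5.83 to 7.20% in the high group and 7.53 to 7.92% in the low group, without overlap, and their part in the results was not tested. In contrast (iii) these shares overlapped, at 5.98 to 7.17% in the high group and 6.64 to 8.12% in the low group.

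Per kilobase of annotated span, TSSK2 stood at 137 ± 51.2 CPM (SD, n = 21 boars), TSSK1B at 64.2 ± 22.5 and TSSK6 at 8.47 ± 4.62. TSSK2 had more reads than its neighbour TSSK1B in all 21 boars, with a ratio of TSSK2 to TSSK1B reads of 2.09 ± 0.247 (SD), from 1.58 in L15 to 2.62 in D7. The pair thus kept its order in every boar of both breeds. The highest boar exceeded the lowest 8.22-fold for TSSK6, 4.81-fold for TSKS, 4.74-fold for TSSK2, 4.09-fold for TSSK3, 3.42-fold for TSSK1B and 2.30-fold for TSSK4. Over all 21 boars, TSSK6 was thus the most variable of the 6 genes and TSSK4 the least. In the Duroc boars TSSK3 varied less, 1.45-fold against 1.81-fold for TSSK4. The lowest boar was L13 for every gene, so the ratios over all boars rest in part on it. L13, a Landrace boar of the high change group, was the lowest of the 13 Landrace boars for all 6 genes. Its summed Sertoli cell markers were at 492.5 CPM against 183 to 258 in the other 12 Landrace boars, its macrophage markers at 13.5 against 2.0 to 11.9, and its elongating spermatid markers at 7812 against 10046 to 18386, and their part in its levels was not tested.

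**Figure D1:**
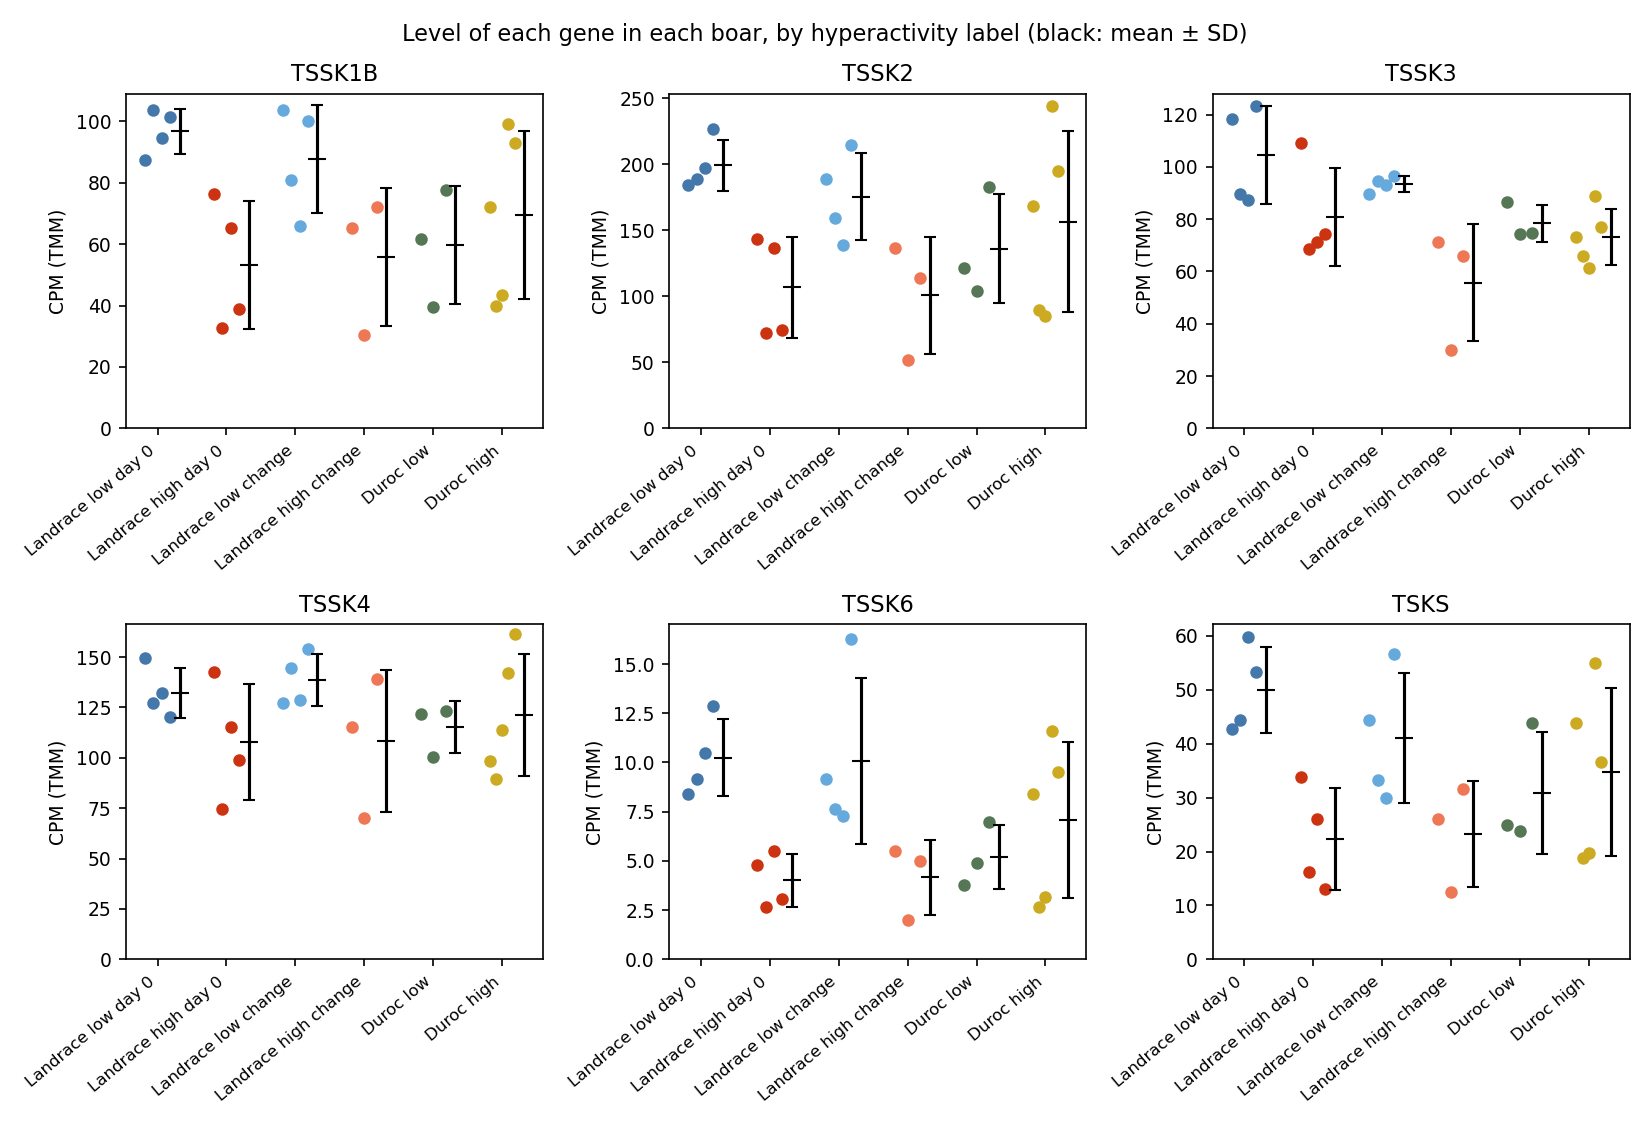
Level of each gene in each boar in CPM with TMM scaling (y axis, from 0), by hyperactivity label (x axis), with each point 1 boar and the black bar the group mean ± SD; L2 and L7 appear in 2 groups each. In the day 0 comparison of Landrace boars, TSSK1B, TSSK2, TSSK6 and TSKS do not overlap between high and low, and TSSK6 is at 2.67 to 5.51 CPM in the high group and 8.42 to 12.9 in the low group.

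Contrast (i) asked which genes differ in testis between Landrace boars with high and low hyperactivity at day 0. TSSK6, TSKS, TSSK2 and TSSK1B were lower in the high hyperactivity group, to between 37.5 and 52.6% of the low group's level as fitted, and TSSK3 and TSSK4 did not pass the test. In the quasi-likelihood test of edgeR, 4 of the 6 genes were called lower, where 15.8% of the 12979 genes tested were called lower. The median log2 fold change, high over low, was -0.94 over the 6 genes and 0.03 over all genes tested. In the same 4 genes the boars of the groups did not overlap, which held for 31.4% of all genes tested.

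TSSK6, the kinase tied to chromatin condensation, measured 4.79, 2.67, 5.51 and 3.08 CPM in the high boars L5 to L8 and 8.42, 9.17, 10.5 and 12.9 CPM in the low boars L1 to L4. Every high boar was below every low boar. The means were 4.02 ± 1.36 and 10.2 ± 1.95 CPM (SD, n = 4 each), and the log2 fold change was -1.41 (SE 0.27, 95% interval -2.01 to -0.82, adjusted p = 0.0208 in edgeR). This adjusted p is the smallest that any gene reached in the contrast. The adjustment gives the same value to many genes at once, so it does not make TSSK6 the first of them.

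TSKS, the substrate of TSSK1B and TSSK2, measured 33.8, 16.2, 26.1 and 13.1 CPM in the high boars and 42.7, 44.3, 59.8 and 53.3 CPM in the low boars. The groups again did not overlap, and L6 and L8 were the lowest. The log2 fold change was -1.23 (SE 0.28, 95% interval -1.83 to -0.63, adjusted p = 0.0209 in edgeR).

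The 2 kinases that bind TSKS were lower by a smaller amount. TSSK2 measured 143, 72.5, 137 and 74.8 CPM in the high boars and 184, 189, 197 and 227 CPM in the low boars, and its log2 fold change was -0.96 (SE 0.23, 95% interval -1.46 to -0.46, adjusted p = 0.0223 in edgeR). TSSK1B measured 76.4, 32.6, 65.1 and 38.9 CPM in the high boars and 87.3, 104, 94.7 and 101 CPM in the low boars, and its log2 fold change was -0.93 (SE 0.24, 95% interval -1.46 to -0.39, adjusted p = 0.0274 in edgeR). For both genes L6 and L8 were lowest, while L5 and L7 lay closer to the low group. For each of TSSK6, TSKS, TSSK2 and TSSK1B, the two-sided exact permutation test gave p = 0.0286, the smallest that 4 boars against 4 allow.

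TSSK3 measured 109, 68.7, 71.3 and 74.5 CPM in the high boars and 118, 89.6, 87.4 and 123 CPM in the low boars. Its log2 fold change was -0.44 (SE 0.18, 95% interval -0.83 to -0.05, adjusted p = 0.0888 in edgeR, exact permutation p = 0.114). L5 lay among the low boars, and the other 3 high boars were below all of them. TSSK4, the kinase of ODF2, measured 143, 74.4, 115 and 99.2 CPM in the high boars and 149, 127, 132 and 120 CPM in the low boars. Its log2 fold change was -0.36 (SE 0.18, 95% interval -0.76 to 0.04, adjusted p = 0.153 in edgeR, exact permutation p = 0.171). Here too L5 alone overlapped the low group.

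These calls depended on single boars. Leaving out L3 or L6 left 0 of the 6 genes called, and only 1 gene of all was then called in either fit. Without L3, the log2 fold changes of TSSK6, TSKS, TSSK2 and TSSK1B were -1.44, -1.17, -1.0 and -0.97, and without L6 they were -1.26, -1.10, -0.81 and -0.75, with adjusted p in edgeR from 0.0504 to 0.0563. Without L8, TSSK1B was not called (adjusted p = 0.0534 in edgeR) and 3 genes remained. Without L5 all 6 genes were called lower, in a fit that called 3764 of 12934 genes against 2682 of 12979 with all boars, TSSK3 at -0.60 (adjusted p = 0.0201) and TSSK4 at -0.51 (adjusted p = 0.0412) in edgeR.

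**Figure D2:**
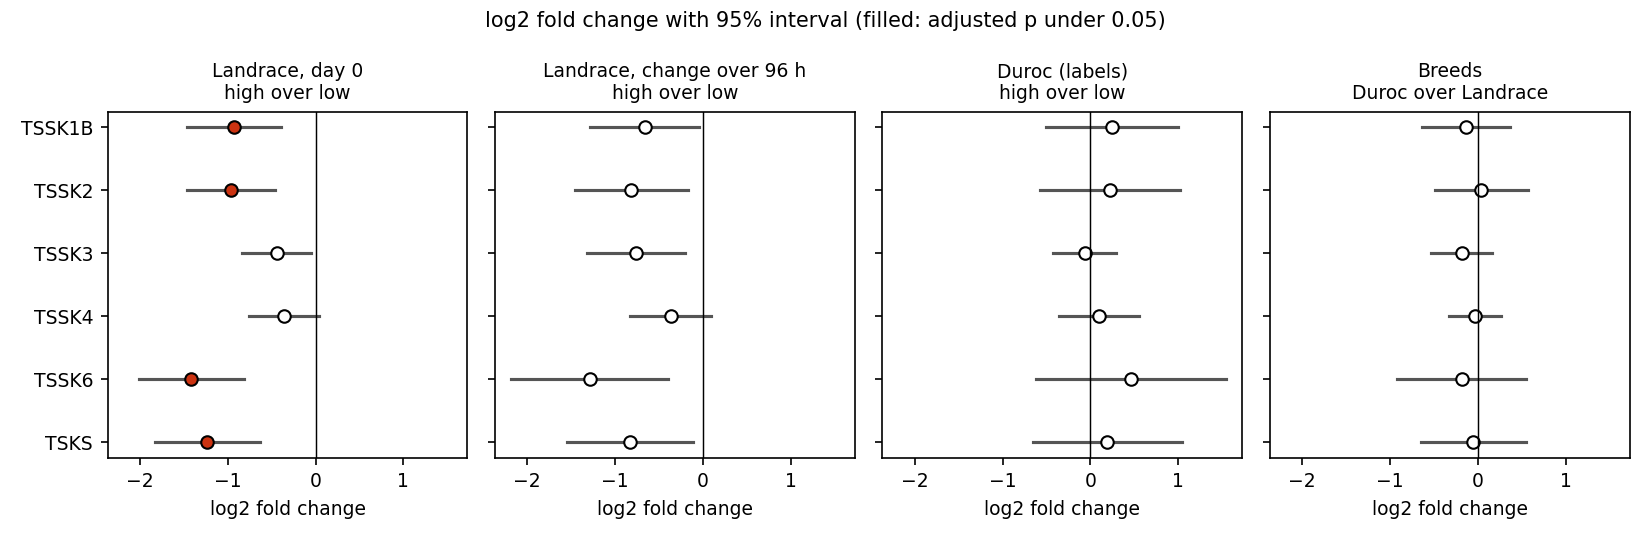
log2 fold change of each gene (x axis) with its 95% interval (line) in 4 comparisons, from edgeR's quasi-likelihood fits, with filled points for an adjusted p under 0.05. The 4 filled points are TSSK1B, TSSK2, TSSK6 and TSKS in the day 0 comparison of Landrace boars, at -0.93, -0.96, -1.41 and -1.23, and no gene is filled in the other comparisons.

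Ratios within a library do not depend on its depth or scaling. TSSK4 was chosen as their denominator after the values were seen, so the ratios are given without a test. It varied least over all 21 boars, though TSSK3 varied less in Duroc. In contrast (i), TSSK6 reads per TSSK4 read ran from 0.0311 to 0.0478 among the high boars and from 0.0563 to 0.107 among the low boars. TSKS reads per TSSK4 read ran from 0.132 to 0.237 and from 0.286 to 0.453. TSSK2 reads per TSSK4 read ran from 0.754 to 1.18 and from 1.23 to 1.89, and those of TSSK1B from 0.392 to 0.565 and from 0.584 to 0.843. All 4 ratios were lower in the high group without overlap, as were those of 7.59% of the other 12978 genes tested, and these are the genes that did not overlap in CPM either. TSSK3 reads per TSSK4 read overlapped, at 0.618 to 0.923 in the high group and 0.662 to 1.02 in the low group.

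**Figure D3:**
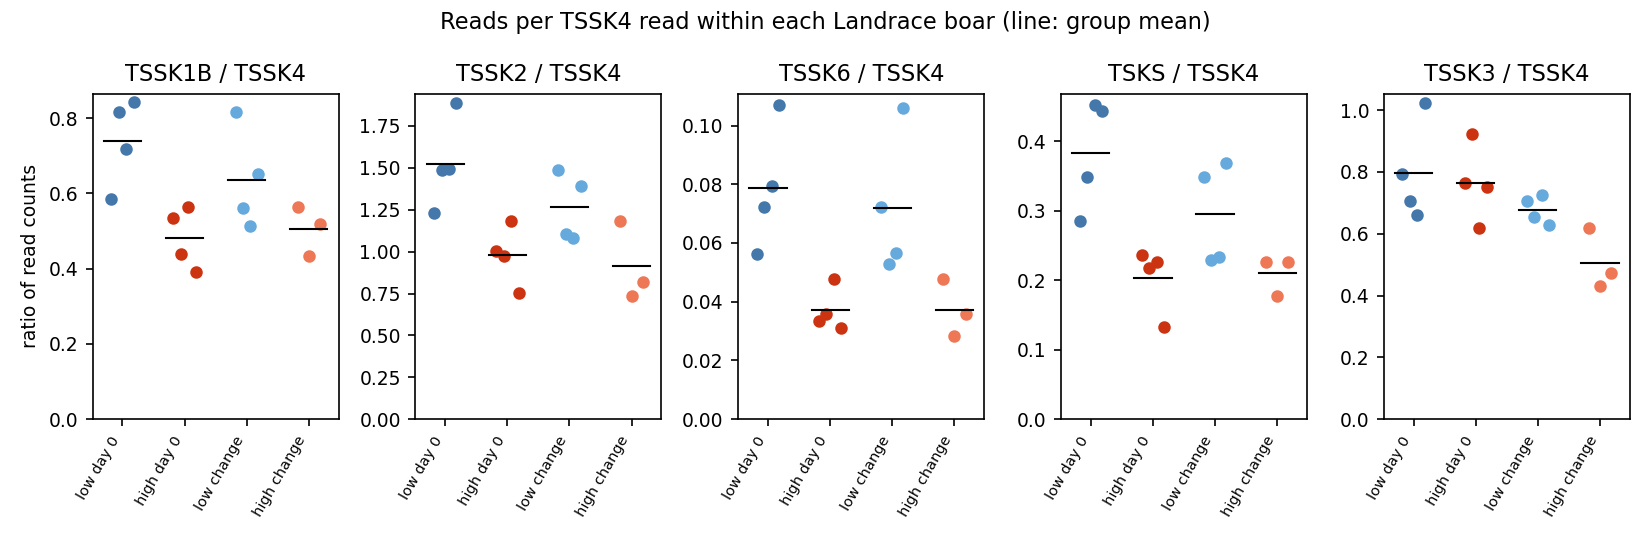
Ratio of the reads of TSSK1B, TSSK2, TSSK6, TSKS and TSSK3 to the reads of TSSK4 in the same library (y axes, from 0) for the Landrace boars by label (x axis), with each point 1 boar and the line the group mean. The day 0 groups are apart for TSSK1B, TSSK2, TSSK6 and TSKS, as for TSSK6 at up to 0.0478 against 0.0563 and above, and overlap for TSSK3.

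Of the 8 matched partners and substrates of TSSK kinases, only ODF2, the outer dense fibre protein that TSSK4 phosphorylates, was called in contrast (i), at a log2 fold change of -0.65 (adjusted p = 0.0390 in edgeR). TSACC, the co-chaperone that activates TSSK6, was at 0.49 (adjusted p = 0.195), PPP1CC, a phosphatase of germ cells, at 0.51 (adjusted p = 0.0514), and SPAG16, a substrate of TSSK2 in the tail axoneme, at 0.39 (adjusted p = 0.129), none of them called by edgeR. The median over these 8 genes was 0.41. Of 8 other germ cell kinases and phosphatases, 2 were lower, HIPK4, a kinase of spermatid head shaping, at -1.75 (adjusted p = 0.0209) and GSK3A, a glycogen synthase kinase, at -0.79 (adjusted p = 0.0291) in edgeR, and the list's median was -0.31.

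Of 10 matched markers of elongating spermatids, 3 were called lower in contrast (i): GAPDHS, the sperm glycolysis enzyme, at -0.90, TNP2, a transition protein, at -0.73, and PRM1, a protamine, at -0.70. The other 7 were not called and lay between -0.28 and 0.31, and the list's median was -0.17. The summed level of the list was 13581 to 18386 CPM in the high group and 11028 to 16400 CPM in the low group, which overlap. Of the 5 round spermatid markers tested, ACR, the acrosomal protease acrosin, was lower at -1.05, and the other 4 were not called, between 0.29 and 0.46. Of 9 spermatocyte markers, DMC1, the meiotic recombinase, was higher at 0.50, and the summed level was 1629 to 2424 CPM in the high group and 1168 to 1509 CPM in the low group, without overlap. Of 4 peritubular markers tested, DES at -1.50 and MYH11 at -1.17 were called lower. All 4 lay between -1.50 and -0.88, with a median of -1.08 against -0.94 for the TSSK kinases and TSKS. The summed level of the list was 17.6 to 63.0 CPM in the high group and 47.9 to 103 CPM in the low group. Of the 20 tested markers of spermatogonia, Sertoli, Leydig, endothelial cells and macrophages, 0 were called by edgeR and 2 had an unadjusted p under 0.05, where 41.7% of all genes tested did. The part of these cell types in the lower levels of the TSSK genes was not tested.

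**Figure D4:**
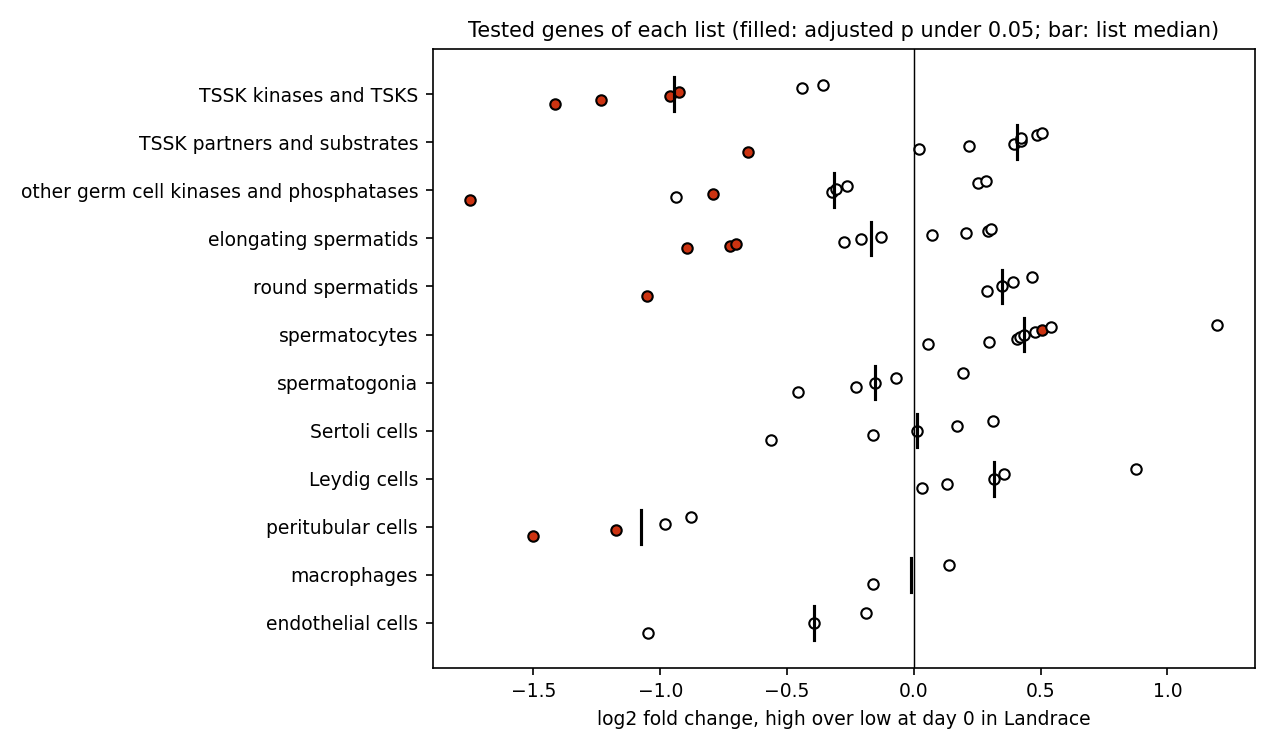
log2 fold change, high over low at day 0 in Landrace (x axis), of the tested genes of each list (y axis), with filled points for an adjusted p under 0.05 in edgeR and a bar for the list's median. The TSSK kinases and TSKS have 4 filled points and a median of -0.94, the partners and substrates 1 filled point and a median of 0.41, and the elongating spermatid markers 3 filled points and a median of -0.17. The peritubular markers have 2 filled points and a median of -1.08.

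Contrast (iii) asked the same of Landrace boars with a high and a low change in hyperactivity over storage. All 6 genes had lower mean levels in the high group, but 0 of them were called by edgeR, as 0% of the 12824 genes tested were, and DESeq2 and edgeR's likelihood ratio test, which called 123 and 64 genes of all, also called 0 of the 6. At an unadjusted p under 0.05, 5 of the 6 genes stood out, where 19.8% of all genes did. The high and low boars of 3 genes, TSSK2, TSSK3 and TSSK6, did not overlap, which held for 16.4% of all genes. The median log2 fold change was -0.79 over the 6 genes and 0.00 over all genes tested.

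TSSK6 measured 5.51, 1.98 and 5.0 CPM in L7, L13 and L15 and 9.17, 7.63, 7.26 and 16.3 CPM in L2, L9, L10 and L12, and its log2 fold change was -1.29 (SE 0.40, 95% interval -2.18 to -0.40, adjusted p = 0.240 in edgeR). TSSK3 measured 71.3, 30.1 and 65.7 CPM and 89.6, 94.7, 93.2 and 96.7 CPM in the same boars, at a log2 fold change of -0.76 (SE 0.25, 95% interval -1.32 to -0.20, adjusted p = 0.240 in edgeR). The low boars were close together for TSSK3 and spread for TSSK6, and L13 was lowest for both. TSSK2 measured 137, 51.5 and 114 CPM and 189, 159, 139 and 214 CPM, at a log2 fold change of -0.81 (SE 0.29, 95% interval -1.46 to -0.17, adjusted p = 0.240 in edgeR). For these 3 genes the two-sided exact permutation test gave p = 0.0286, the smallest that 3 boars against 4 allow.

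TSKS, at -0.83 (SE 0.32), and TSSK1B, at -0.66 (SE 0.28), overlapped between the groups through L15, with exact permutation p = 0.0857 each. TSSK4 was at -0.37 (SE 0.21), with exact permutation p = 0.114. Without L13, the log2 fold changes were -0.95 for TSSK6, -0.52 for TSKS, -0.49 for TSSK2, -0.45 for TSSK3, -0.36 for TSSK1B and -0.13 for TSSK4. All 6 were closer to 0 without that boar, the one with the highest summed Sertoli cell and the lowest summed elongating spermatid markers in Landrace. TSSK6 came at least as near to 0, at -0.947, when another boar was left out. The part of these markers in the values was not tested.

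By the deposited labels, the Duroc boars of contrast (ii) gave no called gene among the 6, nor among the 13043 genes tested (0% in edgeR). At an unadjusted p under 0.05, 0 of the 6 genes stood out, where 1.21% of all genes did, and DESeq2 also called 0 of the 6. The log2 fold changes, high over low, ran from -0.06 (TSSK3) to 0.46 (TSSK6), with a median of 0.21 over the 6 genes and 0.04 over all genes tested. They depended on single boars. Leaving out each boar in turn gave 0.22 to 0.79 for TSSK6, 0.0068 to 0.54 for TSSK1B and 0.013 to 0.56 for TSSK2. TSSK6 measured 8.40, 2.66, 3.18, 11.6 and 9.51 CPM in the high boars D1 to D5 and 3.77, 4.88 and 6.97 CPM in the low boars D6, D7 and D9. The high boars fell to both sides of the low boars, since D2 and D3 were below all 3 of them and D1, D4 and D5 above. TSSK2 measured 168, 89.7, 84.8, 244 and 195 CPM in the high boars and 122, 104 and 182 CPM in the low boars. Here D2 and D3 were below all 3 low boars, D4 and D5 above them, and D1 between D6 and D9. The 95% intervals reached from -0.62 to 1.54 for TSSK6 and from -0.42 to 0.29 for TSSK3, and the exact permutation p-values ran from 0.536 to 0.893. D2 was among the 2 lowest Duroc boars for all 6 genes, and D4 was highest for 5.

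The difference between the day 0 effects in the breeds was tested as an interaction of breed and level over 16 boars. In edgeR 0 of the 6 genes passed, as 0% of 13533 genes did, DESeq2 also called 0, and its direction and size rest on the Duroc labels, which the boar list gives the other way for 7 of the 8 boars. At an unadjusted p under 0.05, 4 of the 6 genes stood out, where 15.7% of all genes did. The interaction, Duroc minus Landrace on the log2 scale, was 1.90 for TSSK6 (SE 0.60), 1.45 for TSKS, 1.21 for TSSK2 and 1.20 for TSSK1B, each with an adjusted p of 0.317 in edgeR, and 0.48 for TSSK4 and 0.39 for TSSK3. A Duroc effect of the opposite sign would make these values smaller for the genes above 0 in contrast (ii), such as TSSK6. The values and the 4 of 6 genes at an unadjusted p thus hold for the deposited labels only. The interaction with the levels of the boar list was not tested.

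Between the breeds, 0 of the 6 genes differed in edgeR, where 2.88% of the 13126 genes tested did, and DESeq2 also called 0. At an unadjusted p under 0.05, 0 of the 6 genes stood out, where 12.3% of all genes did. The log2 fold changes, Duroc over Landrace, ran from -0.18 (TSSK3 and TSSK6) to 0.04 (TSSK2), and the exact permutation p-values from 0.527 to 0.989. The 95% intervals were -0.33 to 0.26 for TSSK4, -0.54 to 0.17 for TSSK3, -0.63 to 0.37 for TSSK1B, -0.49 to 0.57 for TSSK2, -0.65 to 0.55 for TSKS and -0.92 to 0.55 for TSSK6. Differences between the breeds within these bounds were not excluded by these fits. TSSK3 spread less over the Duroc boars, at 61.5 to 88.9 CPM with a median of 74.4, than over the Landrace boars, at 30.1 to 123 CPM with a median of 89.6.

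In the order of the group means, the low day 0 group of Landrace was highest for 5 genes, and for TSSK4 the low change group was. TSSK6 ran from 10.2 ± 1.95 CPM in the low day 0 group over 10.1 ± 4.22 in the low change group, 7.07 ± 3.97 in the high Duroc and 5.21 ± 1.63 in the low Duroc boars to 4.17 ± 1.91 in the high change and 4.02 ± 1.36 in the high day 0 group of Landrace. For each of the 6 genes, neighbours in the order of the 6 groups overlapped and differed by less than the larger SD of the pair. Both Duroc groups thus lay between the low and high Landrace groups for TSSK1B, TSSK2, TSSK4, TSSK6 and TSKS.

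The levels of the genes were correlated over the boars, as were those of many other genes. In the 13 Landrace boars, Pearson's r of log2 CPM lay between 0.729 and 0.975 over the 15 pairs of genes, and Spearman's rho between 0.593 and 0.962. All 15 pairs passed by both measures at a Benjamini-Hochberg adjusted permutation p under 0.05. In the 8 Duroc boars r ran from 0.538 to 0.969 and rho from 0.619 to 0.929, and 6 pairs passed by Pearson's r and 7 by rho in exact permutation tests with the same adjustment. The 6 pairs, also among the 7, were those among TSSK1B, TSSK2, TSSK6 and TSKS, which held r of 0.933 to 0.975 in Landrace and 0.884 to 0.969 in Duroc, and the seventh by rho was TSSK2 with TSSK3. Without the 2 boars farthest from the median of the first gene, these pairs kept r of 0.868 to 0.965 and 0.884 to 0.982. Pairs with TSSK3 or TSSK4 then had r of 0.509 to 0.659 in Landrace, where all 9 were lower than over all boars, and 0.209 to 0.712 in Duroc, where 6 were lower and 3 higher. Genes of 1 library share its depth and scaling.

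A split by label was added after the data were seen. Within the 7 Landrace boars with a low label, the pairs among TSSK1B, TSSK2, TSSK6 and TSKS had r of 0.722 to 0.921, and 4 of the 6 passed (exact permutation tests, adjusted over 15 pairs). Pairs with TSSK3 or TSSK4 had r of -0.05 to 0.39 there, and 0 of 9 passed. Within the 6 boars with a high label, L13 among them, r was 0.900 to 0.973 among the first 4 genes, with adjusted exact permutation p from 0.0521 to 0.0777, and 0.634 to 0.970 for pairs with TSSK3 or TSSK4, of which 1 passed, TSSK1B with TSSK4. The difference between the high and the low boars was not tested.

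**Figure D5:**
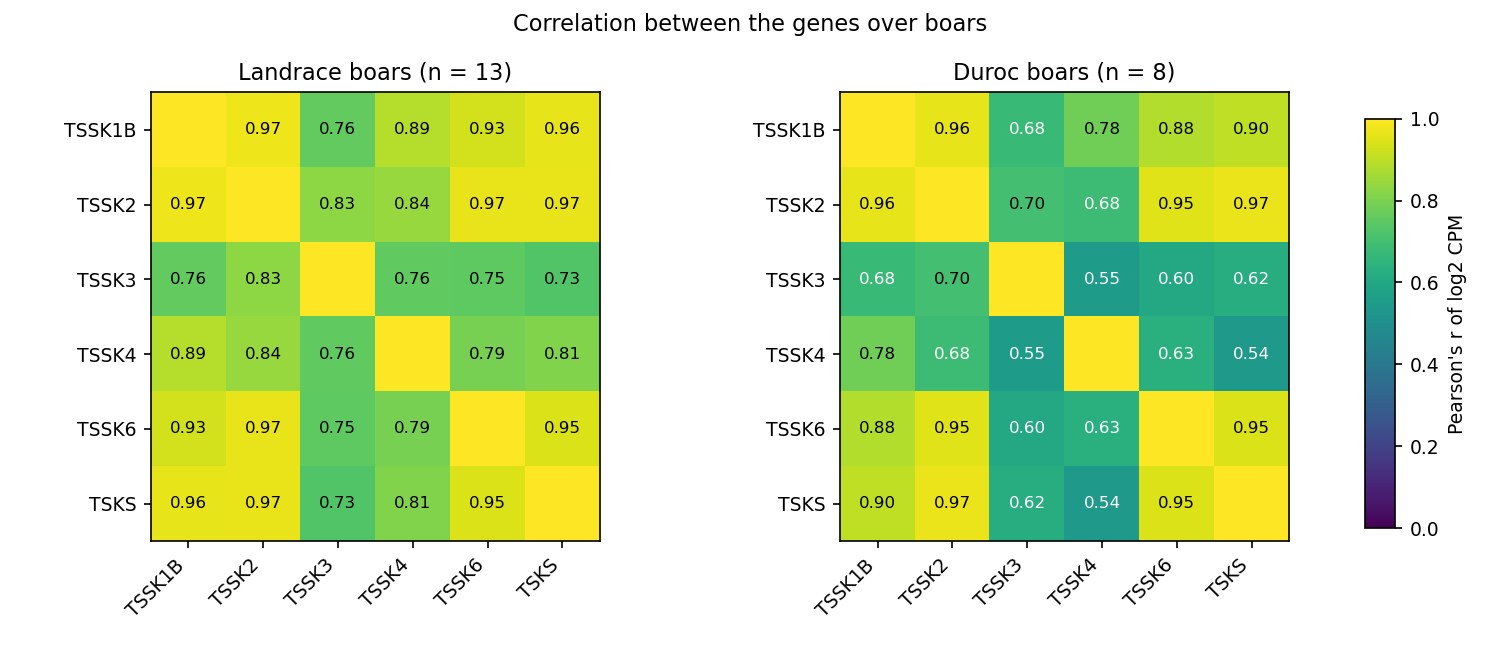
Pearson's r of log2 CPM between the genes (rows and columns) over the 13 Landrace boars (left) and the 8 Duroc boars (right), with the colour scale from 0 to 1. TSSK1B, TSSK2, TSSK6 and TSKS correlate at 0.933 or more in Landrace and at 0.884 or more in Duroc, and pairs with TSSK3 or TSSK4 lie lower, down to 0.538 for TSSK4 and TSKS in Duroc.

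The genes most like each member over the 21 boars were ranked by Pearson's r of log2 CPM after the breed means were taken off, among 13125 other genes, and the 3 highest with a symbol are given as a description. TSSK1B went with BEST1 (r = 0.976), an anion channel, GAPDHS (0.972) and TSSK2 (0.971). TSSK2 went with AKAP1 (0.990), an anchor of protein kinase A, SPATA20 (0.988) and GAPDHS (0.983). The sperm glycolysis enzyme GAPDHS was thus among the closest genes of both. TSSK6 went with C13orf46 (0.988), CSNK1G2 (0.983), a casein kinase, and SPATA3 (0.974), and TSKS with ZMIZ2 (0.986), LIPE (0.983), the hormone-sensitive lipase, and C16orf90 (0.982). TSSK3 went with RCC1 (0.933), the exchange factor of Ran, GSG1 (0.931) and KIF2C (0.928), a kinesin, and TSSK4 with CAMK4 (0.946), a calcium and calmodulin dependent kinase, HSF2BP (0.924) and FAM221B (0.918). No gene was named for more than 2 members. The other members were not always near the top of these rankings: for TSSK1B, TSSK2 ranked 5, TSKS 63, TSSK6 224, TSSK4 804 and TSSK3 2215 among the 13125 genes.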

How the data were processed

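Testis RNA was sequenced as stranded poly(A) libraries of single reads, 1 per boar. After trimming by Trimmomatic 0.36 and alignment to the pig genome by STAR, the authors deposited raw read counts per Ensembl gene, made with HTSeq in the reverse stranded mode and not normalized. The rows for reads outside genes, ambiguous or not uniquely aligned held 29.4 to 39.0% of the reads per library and were left out of library sizes and tests.

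The analysis here used edgeR 4.0.16 under R 4.3.3 (quasi-likelihood test, TMM, Benjamini-Hochberg adjustment over all genes tested, threshold 0.05) on genes that reached 1 CPM in 4 or more libraries of a contrast or of the interaction, or in 8 or more for the breeds. Intervals are 95% intervals from the same fits. Single genes were also compared by exact permutation of log2 CPM (prior count 2), and correlations by permutation in Python 3.11.15. The fit was tested on simulated counts: of 200 changed genes it recovered 194 among 12979 in contrast (i) and 198 among 13126 for the breeds, with 12 and 11 unchanged genes called. These counts hold only for the size of change simulated. They do not give the power to detect changes of the size seen in the TSSK genes.

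Groups are those of the deposited labels. No pair of libraries of a group was a duplicate (chi-square per degree of freedom at least 45.9). TSSK1B is not in the identifier table used, and its identifier was paired with the symbol through the study's gene table. The 6 genes were all described. From the other lists, genes were named up to 3 per direction by size among those called in contrast (i), partners and substrates at will, and by correlation the 3 most similar genes with a symbol. The genes and lists were chosen with earlier results of these data known. Alternatives were the likelihood ratio test, DESeq2 1.42.0, relative log expression scaling, other filters, robust estimation, a joint fit of the 13 Landrace libraries, removal of L2 and L7, a label term and removal of each boar in turn. No sequences of the genes were analysed here.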

Additional observations from a re-analysis of the deposited data

Results flagged for a closer look

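TSSK3 in L5 stood apart from the other high boars of contrast (i), at 109 CPM against 68.7 to 74.5 CPM in L6, L7 and L8. The gap took 0.855 of the range of the group. Of 30 groups of 4 or more boars examined, it was the only one in which a boar stood apart by this measure, and chance gives about 1 in 20, or 1.5 of 30.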

How the results depend on the processing

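Outside leave-one-out fits, all counts of called genes among the 6 stayed within 1.5 times the main count, and 210 of 216 log2 fold changes kept their direction and their side of the threshold. The other 6 were uncalled breed differences that changed sign. With the high or low label as a term they were 0.024 for TSSK1B, 0.024 for TSSK4, 0.19 for TSSK6 and 0.19 for TSKS, and with day 0 boars only, a setting chosen after seeing the data, -0.020 for TSSK2 and 0.0052 for TSSK4. In contrast (i) all 8 of these settings called TSSK1B, TSSK2, TSSK6 and TSKS, and none called TSSK3 or TSSK4. Over all genes, the calls moved from 2682 to 1661 in contrast (i) with a filter of 5 CPM, from 378 to 250 with that filter and to 204 with day 0 boars only between the breeds, and from 0 to 3 by the likelihood ratio test and 12 by DESeq2 in the interaction, and in contrast (iii) from 0 to 64 and 123 by the same tests and to 1 with no filter. Leaving out each boar in turn gave 0 to 6 called genes in contrast (i), with 0 without L3 and without L6, and the cause was not tested. Leaving out 1 boar, sign changes were seen only in uncalled values: -0.031 to 0.20 for TSSK4 and -0.025 to 0.60 for TSKS in contrast (ii), and -0.093 to 0.14 for TSSK2, -0.11 to 0.022 for TSSK4 and -0.19 to 0.056 for TSKS between the breeds. The exact permutation tests and levels without TMM stayed on the same side. With 3 to 5 boars per group, small differences could not be detected. No paired analysis was possible because the numbers in the boar names identify single animals, and the groups compared share none.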

Other observations

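In contrast (iii), the summed level of the elongating spermatid markers was 7812 to 14323 CPM in the high group and 13194 to 17328 CPM in the low group, and the median log2 fold change of the 10 genes was -0.53, with 0 called by edgeR. Over all lists other than the TSSK genes, 0 of 64 tested genes were called in contrast (iii) and 14 had an unadjusted p under 0.05. In contrast (ii) 0 of 64 were called and 0 had an unadjusted p under 0.05, and in the interaction 0 of 68 were called and 9 had one. Between the breeds 2 of 64 were called and 9 had one. Over all genes tested, 19.8% had one in contrast (iii), 1.21% in contrast (ii), 15.7% in the interaction and 12.3% between the breeds.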
